A study of Mus musculus with 6 samples.

Results

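10 genes that are switched on by growth factor signalling through the kinase ERK, most of which feed back on it, were followed in mouse neural stem cells. The cells were with or without the DNA methyltransferase Dnmt3a, in the presence of mitogens and after their withdrawal. The genes are Spry1, Spry2, Spry4, Spred1, Dusp4, Dusp5, Dusp6, Etv1, Etv4 and Etv5. They were found by name, or by the accession of the spot, among the non-control spots of the arrays. 9 of the 10 genes had a probe, 15 probes in all, out of 28786 gene names on the array; Dusp5 matched no spot. All 9 passed the filter on dim probes, among 18062 genes tested.

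Neural stem cells were cultured from the subventricular zone lining the lateral ventricles, taken from mice 14 to 21 days after birth, and were grown as monolayers in serum-free medium with FGF-2 and EGF, each at 10 ng/ml. A pair of RNAs, one from wild-type cells (WT) and one from Dnmt3a-null cells (KO), shared each of the 6 dual-colour arrays. On 4 arrays both cultures were proliferating; on 2 arrays both were differentiating, having been replated with mitogens for 2 days and then kept 3 days without them. KO RNA was labelled with Cy5 on proliferating replicates 1 and 3 and on differentiating replicate 2, and with Cy3 on the other 3 arrays. The labels call the arrays biological replicates and do not say which animals or litters they came from, so the p-values measure the spread between these samples; the making of the null allele was not described in the labels. All proliferating arrays lay on 1 slide and both differentiating arrays on another, so that slide and condition cannot be told apart, while KO and WT were compared within each array.

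FGF and EGF receptors activate Ras, Raf, MEK and ERK, and active ERK induces a set of genes, most of which dampen the same cascade. Sprouty and Spred proteins act between the receptor and Raf, the dual specificity phosphatases Dusp4, Dusp5 and Dusp6 remove the activating phosphates from ERK, and Etv1, Etv4 and Etv5, the PEA3 group of ETS transcription factors, carry the signal to target genes. The messages of most of these genes are short-lived and are widely read as a measure of ERK output. In the forebrain, FGF signalling keeps several of them on in progenitor cells.

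Dnmt3a methylates cytosines of CpG dinucleotides, and the sequence before the start of 3 of these genes is shown for its content of such sites: Dusp6 and Etv5, the members that passed the withdrawal test below, and Etv1, whose pattern differed from theirs. Each line gives the 250 bases before the RefSeq start of the gene (build GRCm38.p6), 5′ to 3′ on the strand of the gene, with CpG dinucleotides in capitals. The windows are chr10:99262981-99263230 on the plus strand for Dusp6, chr16:22439571-22439820 on the minus strand for Etv5 and chr12:38779832-38780081 on the plus strand for Etv1.
Dusp6: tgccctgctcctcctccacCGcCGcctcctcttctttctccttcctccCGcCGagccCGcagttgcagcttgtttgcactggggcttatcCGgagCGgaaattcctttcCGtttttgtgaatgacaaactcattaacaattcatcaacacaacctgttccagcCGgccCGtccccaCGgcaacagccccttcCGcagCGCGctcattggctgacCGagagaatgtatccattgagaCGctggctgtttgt
Etv5: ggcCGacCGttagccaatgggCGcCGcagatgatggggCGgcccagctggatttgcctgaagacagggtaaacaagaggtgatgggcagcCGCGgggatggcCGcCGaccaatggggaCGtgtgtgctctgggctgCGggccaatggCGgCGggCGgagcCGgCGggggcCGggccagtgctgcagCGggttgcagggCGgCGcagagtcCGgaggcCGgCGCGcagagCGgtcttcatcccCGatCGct
Etv1: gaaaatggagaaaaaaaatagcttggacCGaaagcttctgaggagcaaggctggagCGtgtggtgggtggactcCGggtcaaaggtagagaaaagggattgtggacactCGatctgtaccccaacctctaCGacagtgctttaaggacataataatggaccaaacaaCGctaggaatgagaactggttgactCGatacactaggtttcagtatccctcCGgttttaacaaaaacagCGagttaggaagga
The Dusp6 window held 16 CpG dinucleotides, that of Etv5 27 and that of Etv1 9, against a median of 6 over 32851 RefSeq promoter windows of that length. A window was found for 7 of the 10 genes (Spry1, Spry2, Spred1, Dusp5, Dusp6, Etv1, Etv5). Those of Spry1 and Spry2 held 23 each, that of Dusp5 21 and that of Spred1 31. A second start of Etv5 (chr16:22438369-22438618) had 18 and a second start of Etv1 (chr12:38783461-38783710) had 1. The letters AGGAAG, a core that PEA3 group factors can bind, were searched on both strands and occurred once in the windows of Dusp6 and Dusp5 and of the first start of Etv1 and in no other member's window, against 29.5% of all windows; the AP-1 letters TGACTCA, searched likewise, occurred in none of these and in 4.46% of all. Methylation itself was not measured on these arrays.

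Levels are given below as log2 normalized intensity of each gene's brightest probe in each channel. On build mm7, which the array files use, those probes lie at chr10:98828759-98828818 (plus strand) for Dusp6, chr16:22032301-22032360 (minus strand) for Etv5 and chr12:36701095-36701155 (plus strand) for Etv1; no annotation of that build was used, so their place within the transcripts is not given. They can be compared between samples for one gene and not between genes. In RNA from a whole culture, fewer cells that express a gene and less RNA per cell cannot be told apart.

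**Figure D1:**
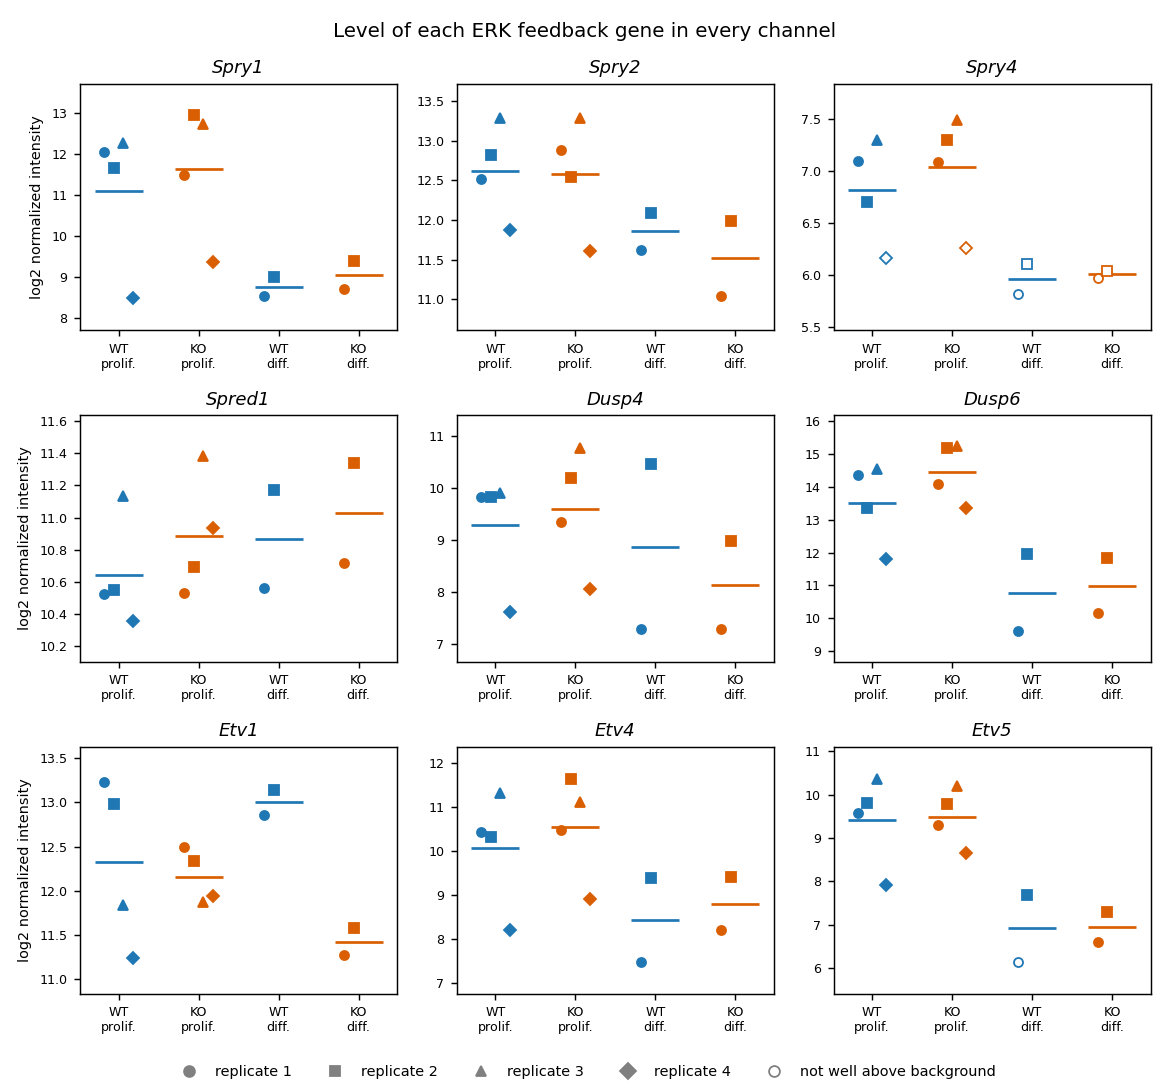
Log2 normalized intensity (vertical axes, one scale per gene) of the 9 measured ERK feedback genes in every WT (blue) and KO (orange) channel of the 4 proliferating and 2 differentiating arrays. Symbols mark replicates, lines mark group means and open symbols mark channels not well above background; proliferating replicate 4 (diamond) is the lowest of the 4 WT proliferating channels in all 9 panels.

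One proliferating array stood apart for these genes and bears on every comparison with it. In WT cells, replicate 4 had the lowest level of the 4 proliferating arrays for 9 of 9 members, while the same array was lowest for 31.5% of all 18050 genes. In KO cells this was so for 7 of 9 members (all but Spred1 and Etv1), against 30.5% of all genes. The summed intensity of 13 dividing-cell genes (such as Mki67, Top2a and Cdk1) was likewise lower on that array, 27610 in WT and 39940 in KO cells, against 87610 to 124600 on proliferating replicates 1 to 3 and 8654 to 21280 on the differentiating arrays. On replicates 3 and 4 the female-specific RNA Xist and the Y-linked gene Ddx3y differed between the WT and the KO channel, so those pairs were not matched for sex. In both genotypes Xist was well above background on these arrays alone. Ddx3y was well above it in every channel but the WT channels of these arrays. Sex was thus also not balanced between proliferating and differentiating samples within a genotype. The part that either fact plays in the levels was not tested, and results are given with and without these arrays where that changes them.

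Dusp6 and Etv5 fell after mitogens were withdrawn, in both genotypes. In limma's separate-channel fit over all genes these were the 2 of 9 members that passed in WT cells and the 2 of 9 that passed in KO cells, and none rose, at a Benjamini-Hochberg adjusted p under 0.05. Over all genes 14.9% passed in WT cells and 5.89% fell; in KO cells 15.2% passed and 6.09% fell. The estimate was negative for 7 of 9 members in WT and for 8 of 9 in KO cells, with medians of -0.85 and -1.46 on the log2 scale, while the medians of all genes were 0.05 and 0.05. Markers of the cell types in these cultures moved on withdrawal too. The dividing-cell genes fell (12 of 13 in WT, 9 of 13 in KO cells), and 5 and 7 of 10 astrocyte markers, 7 and 3 of 14 neuron markers and 2 and 6 of 15 oligodendrocyte lineage markers rose. In the other direction, 1 oligodendrocyte lineage marker fell in each genotype and 1 neuron marker fell in KO cells. Of 13 neural stem cell markers 3 fell in WT and 2 in KO cells, and none rose. The summed intensity of the astrocyte markers was 27590 to 59360 before and 115700 to 146400 after withdrawal in WT cells, and 86590 to 120100 and 163800 to 240500 in KO cells. Their part in the levels of the members was not tested.

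Dusp6, a cytoplasmic phosphatase specific for ERK, showed the steepest decline. Its log2 level in WT cells was 14.37, 13.37, 14.53 and 11.80 on proliferating replicates 1 to 4, and 9.61 and 11.95 on differentiating replicates 1 and 2. In KO cells it was 14.07, 15.19, 15.24 and 13.35 while proliferating, and 10.15 and 11.83 after withdrawal. The groups did not overlap in KO cells and overlapped in WT cells through proliferating replicate 4 alone. Of all genes in KO cells, 19.2% were lower after withdrawal without overlap. The fitted difference was -2.74 ± 0.75 (SE, adjusted p = 0.0383) in WT cells, a 6.68-fold lower intensity, and -3.48 ± 0.75 (adjusted p = 0.0167) in KO cells, 11.1-fold lower as measured. The KO channel of proliferating replicate 3 was saturated, so its level there is a lower bound and the KO estimates that use it are limited by it.

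Etv5, the PEA3 group factor whose transcription in neural progenitors is closely tied to FGF signalling, fell to a similar degree in each genotype. In WT cells its log2 levels were 9.57, 9.80, 10.36 and 7.92 while proliferating, and 6.15 and 7.70 after withdrawal, the first of these not well above background. In KO cells they were 9.31, 9.79, 10.20 and 8.66, and then 6.61 and 7.31. Both differentiating levels lay below all 4 proliferating levels in WT and in KO cells, which was the case for 17.7% of all genes in WT and 19.2% in KO cells. The difference was -2.49 ± 0.55 in WT (adjusted p = 0.018) and -2.53 ± 0.55 in KO cells (adjusted p = 0.0172). A second, dimmer Etv5 probe was well above background in every proliferating channel and in no differentiating channel.

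The calls of Dusp6 and Etv5 hung on single arrays. Leaving out proliferating replicate 1, 2 or 3 left no member past the threshold in either genotype. Without replicate 1, 3.79% of all genes passed in WT and 2.36% in KO cells, against 14.9% and 15.2% with all arrays. With any one array but proliferating replicate 4 left out, WT estimates were -1.94 to -3.54 for Dusp6 and -1.86 to -3.12 for Etv5. Leaving out proliferating replicate 4 brought 6 of 9 members past the threshold in WT and the same 6 in KO cells. All 6 were lower: Spry1, Spry2, Spry4, Dusp6, Etv4 and Etv5. Each had its lowest proliferating level on that array in both genotypes, so leaving the array out by itself steepens the estimate. These calls are therefore not counted as support for a decline. The share of all genes that passed also grew, to 21.2% in WT (9.01% lower) and 26.2% in KO cells (11.2% lower). Without replicates 3 and 4 together, Etv5 alone passed in each genotype, where 5.46% and 6.64% of all genes did. Dusp6 in WT cells also missed the threshold without a filter on dim probes (adjusted p = 0.0547) and with quantile normalization of all channels (adjusted p = 0.0583).

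**Figure D2:**
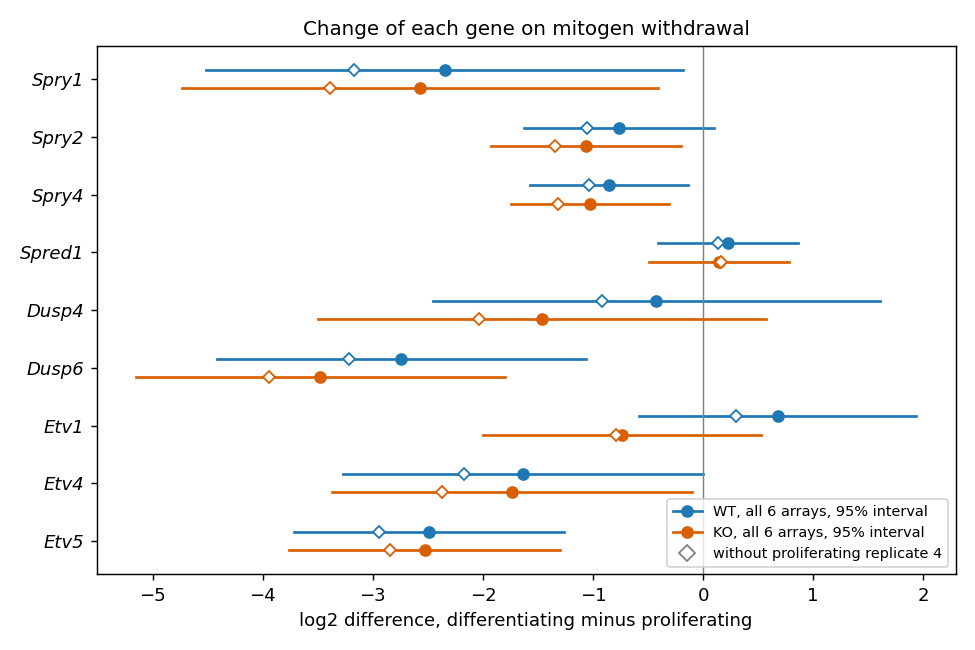
Fitted log2 difference between differentiating and proliferating cells (horizontal axis) for each ERK feedback gene in WT (blue) and KO (orange) cells; filled points with 95% intervals use all 6 arrays and open diamonds leave out proliferating replicate 4. The largest declines are those of Dusp6 (-2.74 and -3.48), Etv5 (-2.49 and -2.53) and Spry1 (-2.35 and -2.57). The diamonds lie further to the left for each of these, which follows from leaving out the proliferating array with their lowest levels.

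Among the Sproutys, which block signalling from receptor tyrosine kinases to Ras and Raf, Spry1 had the widest range. Its WT log2 levels were 12.04, 11.66, 12.27 and 8.48 in proliferating cells and 8.53 and 9.0 after withdrawal; the KO levels were 11.48, 12.95, 12.72 and 9.36, then 8.71 and 9.40. Replicate 4 thus lay at the level of the differentiating cells, and the other 3 arrays lay well above it. The difference was -2.35 ± 0.97 in WT (adjusted p = 0.129) and -2.57 ± 0.97 in KO cells (adjusted p = 0.0973), and without replicate 4 it was -3.17 (adjusted p = 0.00695) and -3.38 (adjusted p = 0.0044). Without replicate 1 it was -2.06 (adjusted p = 0.274) and -2.60 (adjusted p = 0.185). Without replicates 3 and 4 together it was -3.09 (adjusted p = 0.158) and -3.16 (adjusted p = 0.141).

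Spry2 differed less. Its log2 levels in WT cells were 12.52, 12.82, 13.28 and 11.87 while proliferating and 11.63 and 12.09 while differentiating; in KO cells they were 12.88, 12.55, 13.28 and 11.62, and then 11.05 and 11.99. The estimates were -0.77 ± 0.39 (adjusted p = 0.204) and -1.06 ± 0.39 (adjusted p = 0.089). Its second probe, much dimmer, read -0.03 in WT and 0.01 in KO cells, so the probes of Spry2 disagreed.

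Spry4 was measured only in cells with mitogens. It was well above background on proliferating replicates 1 to 3 in both genotypes, at log2 levels of 6.71 to 7.30 in WT and 7.09 to 7.49 in KO cells, and on no other array. Its mean intensity in proliferating cells was at least 1.75-fold higher than in differentiating WT cells and at least 2.04-fold higher than in differentiating KO cells. That bound sets the proliferating mean against the higher of the dim signal itself and the lowest signal well above background. The proliferating mean includes the dim signal of replicate 4, so the bound is approximate, and in KO cells it equals the fitted fold of 2.04. The fit gave adjusted p = 0.102 in WT and 0.0584 in KO cells, and without proliferating replicate 4 0.00799 and 0.00255. Without proliferating replicate 1 it gave 0.278 and 0.182, and without replicates 3 and 4 together 0.111 and 0.06.

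Spred1, a Sprouty-related inhibitor of Ras activation, was the only member with a positive estimate in both genotypes, and its probes disagreed. At the brightest probe its levels lay between 10.35 and 11.17 in all WT and between 10.53 and 11.38 in all KO channels, with overlapping groups. The differences were 0.23 ± 0.29 in WT (adjusted p = 0.628) and 0.14 ± 0.29 in KO cells (adjusted p = 0.76). A second probe of the gene read -0.65 in WT and -0.93 in KO cells. The third probe was not well above background in any differentiating channel, so no difference is given for it.

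Dusp4, a nuclear phosphatase that acts on ERK and other MAP kinases, was spread too widely for a difference to be seen. Its WT levels were 9.83, 9.82, 9.90 and 7.61 in proliferating cells and 7.27 and 10.46 in differentiating cells, where one array was the lowest and the other the highest of all 6. Its KO levels were 9.36, 10.20, 10.78 and 8.06, then 7.29 and 8.98. The estimates were -0.42 ± 0.91 (adjusted p = 0.791) and -1.46 ± 0.91 (adjusted p = 0.292).

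Etv4, the PEA3 founding member, followed the pattern of Spry1. In WT cells it measured 10.43, 10.30, 11.32 and 8.19, then 7.47 and 9.37; in KO cells 10.47, 11.63, 11.12 and 8.90, then 8.20 and 9.39. The difference was -1.64 ± 0.73 in WT (adjusted p = 0.157) and -1.74 ± 0.73 in KO cells (adjusted p = 0.132). It was -2.17 (adjusted p = 0.0167) and -2.37 (adjusted p = 0.00995) without replicate 4. Without replicate 1 it was -1.60 (adjusted p = 0.31) and -1.67 (adjusted p = 0.282). Without replicates 3 and 4 together it was -1.94 (adjusted p = 0.126) and -2.26 (adjusted p = 0.0848).

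Etv1, which besides its place downstream of FGF marks subsets of neurons, among them olfactory bulb interneurons, behaved otherwise. In WT cells its log2 level was 13.22, 12.99, 11.84 and 11.24 on the proliferating arrays and 12.86 and 13.14 on the differentiating arrays. In KO cells it was 12.49, 12.33, 11.87 and 11.95, and then 11.27 and 11.58. The groups overlapped in WT cells and did not in KO cells, where 19.2% of all genes were lower after withdrawal without overlap. The withdrawal estimate was thus positive in WT (0.68 ± 0.57, adjusted p = 0.447) and negative in KO cells (-0.74 ± 0.57, adjusted p = 0.396), and neither passed.

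The second question was whether these genes differed between KO and WT cells. Dnmt3a itself, as a check of the labels, had a log2 KO over WT ratio of -0.96 ± 0.093 (SE, adjusted p = 0.0219) in proliferating and of -1.38 ± 0.13 (adjusted p = 0.0154) in differentiating cells and was below 0 on 6 of 6 arrays. Its signal stayed well above background in all 6 KO channels, at log2 levels of 7.43 to 7.96 against 8.53 to 9.30 in WT channels; whether the probe lies within the deleted part is not known from the labels. In proliferating cells 0 of 9 members passed in limma's fit of the ratios, where 0.952% of all genes did; at an unadjusted p under 0.05 it was 2 of 9, against 16% of all genes. The log2 KO over WT ratio was positive for 7 of 9 members, with a median of 0.25, and for 47.9% of all genes, with a median of -0.01. Without proliferating replicates 3 and 4 together the ratio was negative for 3 of 9 members, and the member median was 0.08. In that setting the signs of Spry2 (0.04), Dusp4 (-0.05) and Etv5 (-0.13) turned.

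Dusp6 and Etv4 were the 2 members with an unadjusted p under 0.05 in proliferating cells. The log2 ratio of Dusp6 was -0.30, 1.81, 0.70 and 1.55 on replicates 1 to 4, so it was higher in KO cells on 3 of 4 arrays. Both high values came from arrays with KO RNA in Cy3 and both low values from arrays with KO RNA in Cy5. With the dye as a term the estimate was 0.94 ± 0.19 (95% interval 0.46 to 1.43, adjusted p = 0.115), or 1.92-fold as measured; the KO signal of replicate 3 was saturated, so the ratio of 0.70 there, and with it the estimate, is limited by saturation. It rose to 1.22 and passed (adjusted p = 0.035) without replicate 1, the one array with a lower KO level, when 0.947% of all genes passed. Its adjusted p ranged from 0.035 to 0.337 over the alternatives.

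Etv4 gave log2 ratios of 0.05, 1.33, -0.20 and 0.71 in proliferating cells, again higher where KO RNA was in Cy3. Its estimate was 0.47 ± 0.13 (adjusted p = 0.164). For Spry1 the 4 ratios were -0.56, 1.29, 0.46 and 0.88 with an estimate of 0.52 ± 0.24 (adjusted p = 0.374), and the same replicate 1 was the lowest. Spred1 was higher in KO cells on 4 of 4 arrays, by 0.01 to 0.58, with a mean of 0.25 ± 0.24 (SD, n = 4, adjusted p = 0.317); a ratio above 0 on every array was found for 9.84% of all genes. The remaining members (Spry2, Spry4, Dusp4, Etv1 and Etv5) had estimates between -0.16 and 0.31, and their adjusted p lay between 0.373 and 0.866. The ratios of Etv1 were -0.73, -0.65, 0.04 and 0.71 on replicates 1 to 4. Without replicates 3 and 4 together its estimate was -0.69 (adjusted p = 0.0921).

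**Figure D3:**
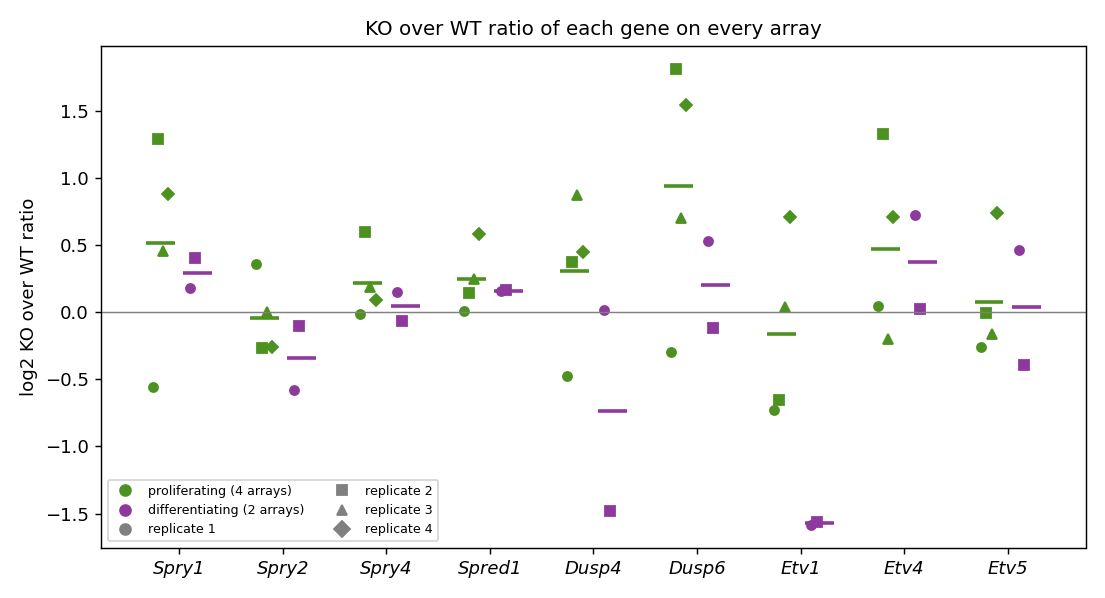
Log2 KO over WT ratio (vertical axis) of each ERK feedback gene on every proliferating (green, 4) and differentiating (purple, 2) array; symbols mark replicates and bars mark means. Etv1 is near -1.57 on both differentiating arrays, while the proliferating ratios of Dusp6 run from -0.30 to 1.81.

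In differentiating cells 0 of 9 members passed, where 3.08% of all genes did, and 2 of 9 (Etv1 and Spry2) had an unadjusted p under 0.05, against 17.5%. Etv1 had the largest ratio in size. It was lower in KO cells on both arrays, as were 30.5% of all genes. Its ratios there were -1.58 and -1.56, and the estimate of -1.57 ± 0.35 (95% interval -2.44 to -0.71) had an adjusted p of 0.085. This corresponds to a 2.98-fold lower intensity in KO cells. The dyes were swapped between these 2 arrays and the ratios were alike in both. Its estimate passed in 4 of the 15 alternative settings run. Among these was a fit of the differentiating arrays alone (adjusted p = 0.000762, on 1 residual degree of freedom). In that fit a larger share of all genes passed than the 3.08% with all arrays. Another had same-numbered replicates as a block (-1.22), though the numbers pair samples by name only. The estimate of Etv1 also passed without proliferating replicate 4 (adjusted p = 0.0476, with 2.12% of all genes). It did so too without replicates 3 and 4 together (adjusted p = 0.00585, with 5.37% of all genes). It missed the threshold without either differentiating array (adjusted p = 0.816 and 0.466), when 1 array remained.

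Neuronal marker genes also differed between KO and WT differentiating cells. The summed intensity of 14 neuron markers was 27290 and 29110 in differentiating WT cells and 12420 and 14060 in differentiating KO cells, against 11040 to 13490 in all proliferating channels. All 14 were well above background in differentiating WT cells and 11 in differentiating KO cells, where Stmn2, Gad1 and Dlx2 were not. Of the 14, 5 were lower in differentiating KO than WT cells at an adjusted p under 0.05 and none was higher. On the same arrays 7 of 15 oligodendrocyte lineage markers, 3 of 10 astrocyte markers and 9 of 13 dividing-cell genes were higher in KO cells. In KO cells the neuron sums were 11230 to 12730 before and 12420 to 14060 after withdrawal. The withdrawal estimate of Etv1 in KO cells was -0.74 (adjusted p = 0.396 in the separate-channel fit). Etv1 was highest in the WT channel of proliferating replicate 1, where the sum was 12710. The part of the neuron markers in the difference of Etv1 was not tested. Microglial markers were near background in all groups (1 or 2 of 10 well above it), and 12 or 13 of the 13 neural stem cell markers were well above it in every channel.

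Spry2 was lower in KO cells on both differentiating arrays, as were 30.5% of all genes. Its ratios there were -0.58 and -0.10, with an estimate of -0.34 ± 0.11 (adjusted p = 0.208). Its second probe, well above background on every array, read -0.08 and 0.07 there. Dusp4 differed between the arrays, at 0.01 and -1.48. Dusp6 (0.53 and -0.12), Etv5 (0.46 and -0.39) and Spry4 (0.15 and -0.06) had opposite signs on them, and Spry4 was not well above background there. Spry1 (0.18 and 0.40), Spred1 (0.16 and 0.17) and Etv4 (0.72 and 0.02) were above 0 on both arrays, as were 30.4% of all genes, and none of the 3 passed.

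The difference between the KO effects in the 2 conditions, which is the same contrast as the difference between the withdrawal responses of KO and WT cells, passed for 0 of 9 members, and for 0.0498% of all genes. All 9 estimates were negative, while 48.7% of all genes had a positive one, and the member median was -0.23. Etv1 had the largest, -1.41 ± 0.43 (95% interval -2.48 to -0.35, unadjusted p = 0.018, adjusted p = 0.289), followed by Dusp4 (-1.04 ± 0.46) and Dusp6 (-0.74 ± 0.34). For Etv4 and Etv5 the intervals ran from -0.64 to 0.44 and from -0.61 to 0.53. Without proliferating replicate 4, 7 of 9 were negative, and likewise without replicates 3 and 4 together. In the latter setting the estimate of Etv1 was -0.88 (adjusted p = 0.158). So the decline of Dusp6 and Etv5 on withdrawal was called in each genotype, and a difference in that decline was not detectable with these arrays.

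Over the 12 channels, 7 members followed each other closely and 2 did not, each read from its brightest probe. For Spred1 that is 1 of 3 probes, and its second probe read -0.65 in WT and -0.93 in KO cells on withdrawal. The Pearson correlation of each gene with the mean standardised level of the 9 members was 0.92 to 0.97 for Spry1, Spry2, Spry4, Dusp4, Dusp6, Etv4 and Etv5, and 0.32 for Spred1 and 0.34 for Etv1. The closest pairs were Spry1 with Spry4 (r = 0.97) and Dusp6 with Etv5 (r = 0.96). These are descriptions: the channels come in pairs from 6 arrays, 2 conditions and 2 slides, and each gene is part of the mean it is set against. The mean standardised level was 0.38 to 1.08 on proliferating replicates 1 to 3, -0.96 (WT) and -0.39 (KO) on replicate 4, and -1.22 to -0.01 on the differentiating arrays. The differentiating arrays also differed from each other, since replicate 2 was above replicate 1 in both genotypes.

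**Figure D4:**
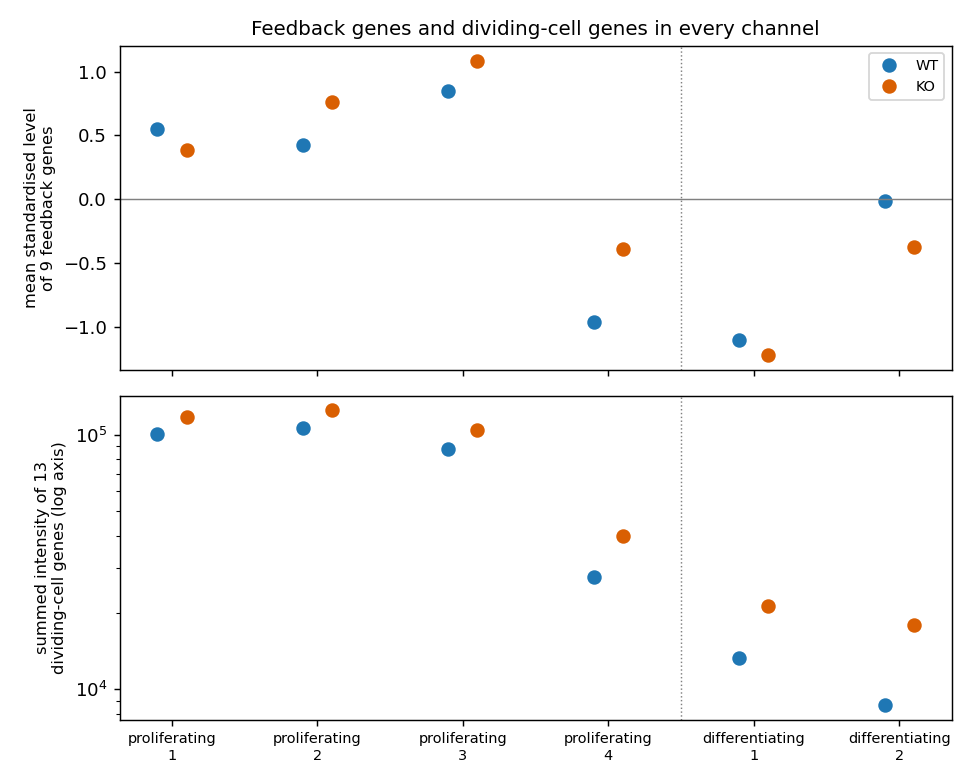
Mean standardised level of the 9 ERK feedback genes (upper panel; each gene scaled to mean 0 and SD 1 over the 12 channels) and summed intensity of 13 dividing-cell genes (lower panel, log axis) in the WT (blue) and KO (orange) channel of each array. Both are lower on proliferating replicate 4 than on replicates 1 to 3; on differentiating replicate 2 the feedback genes were higher than on replicate 1 and the dividing-cell sums were not.

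The genes outside the set whose levels over the 12 channels were most like the member mean were Srgap2 (r = 0.98), a Rac-directed GTPase activator of neuronal migration, Gstcd (0.98), Spred2 (0.97), Nab2 (0.97) and Wdr55 (0.97). Spred2 is the close relative of Spred1, and Nab2 is a corepressor of Egr factors and is itself induced by growth factors. Spred2 differed on withdrawal by -0.62 in WT (adjusted p = 0.361) and -1.14 in KO cells (adjusted p = 0.105), and Nab2 by -0.65 (adjusted p = 0.384) and -1.14 (adjusted p = 0.131). Of the 5 genes in 2 genotypes, Srgap2 in KO cells alone passed (-1.20, adjusted p = 0.0311). Across proliferating KO and WT cells none of the 5 passed.

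Of the other pathway lists, the genes that passed on withdrawal are given below as log2 differences. The counts are to be read against all genes, of which 9.03% rose and 5.89% fell in WT cells and 9.14% rose and 6.09% fell in KO cells, and with lists of 12 to 25 genes nothing is read from them about a list. No gene of these lists passed for the difference of KO effects. A call in 1 genotype alone is therefore not read as a difference in response between the genotypes. Of 20 other feedback inhibitors measured, 1 rose and 3 fell in WT cells, and 2 rose and 1 fell in KO cells, with medians of -0.09 and -0.07. Dusp14, a MAP kinase phosphatase, rose in both (1.49, adjusted p = 0.0153, and 1.97, adjusted p = 0.00601). In WT cells Fgfrl1, an FGF-binding receptor without a kinase domain, fell by 1.34 (adjusted p = 0.0314), the p38 and JNK phosphatase Dusp10 fell by 2.06 (adjusted p = 0.0442), and Cbl, the ubiquitin ligase of the EGF receptor, was at least 1.61-fold lower after withdrawal (adjusted p = 0.0481). In KO cells the immediate early phosphatase Dusp1 fell by 1.68 (adjusted p = 0.0191) and Dusp9 rose by 0.55 (adjusted p = 0.0427).

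Of 14 receptor genes 3 rose in each genotype and none fell, with medians of 0.35 in WT and 0.03 in KO cells. Pdgfrb, the receptor of PDGF-B, rose by 4.12 (adjusted p = 0.000514) and 3.51 (adjusted p = 0.000918), though it was well above background on 2 of 4 proliferating arrays in each genotype, and the neuregulin receptor Erbb4 by 1.03 (adjusted p = 0.0199) and 0.79 (adjusted p = 0.0493). Kit rose in WT cells (2.79, adjusted p = 0.004) and Erbb3 in KO cells (1.94, adjusted p = 0.00876). Both also passed between genotypes in differentiating cells, where Kit was lower (-2.67, adjusted p = 0.0154) and Erbb3 higher (1.80, adjusted p = 0.0218) in KO cells. Of 12 ligand genes (medians 0.40 and 0.14), 1 rose in WT and 3 in KO cells, and none fell. Fgf2 rose in both genotypes (0.52, adjusted p = 0.0308, and 0.56, adjusted p = 0.0235) from a level well above background on 2 of 4 proliferating WT and 1 of 4 proliferating KO channels, and in KO cells so did Fgf18 (0.76, adjusted p = 0.013) and Pdgfa (2.10, adjusted p = 0.0412).

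Of 25 genes of the cascade from Ras to ERK and its kinases, 1 rose and 2 fell in WT cells, and 1 rose and 1 fell in KO cells, with medians of -0.06 and -0.01. The phosphatase Ptpn11 (Shp2), which promotes Ras activation, rose in both (0.81, adjusted p = 0.0283, and 0.71, adjusted p = 0.0437). Mapk3 (ERK1) and the ERK-activated kinase Rps6ka2 fell in WT cells by 0.53 (adjusted p = 0.0445) and 0.59 (adjusted p = 0.047), and Braf fell in KO cells by 0.51 (adjusted p = 0.0461). Mapk3 was also higher in KO than in WT differentiating cells (0.83, adjusted p = 0.028). Of 22 early transcription targets of growth factors, 1 rose and 1 fell in WT cells and 2 fell in KO cells, with medians of -0.49 and -0.39. The cyclin gene Ccnd1, which ERK signalling keeps on during G1 phase, fell in both (-3.30, adjusted p = 0.0332, and -3.19, adjusted p = 0.0366). The serum response factor gene Srf rose in WT cells (0.69, adjusted p = 0.0186), and Ets1, an ETS factor that ERK phosphorylates, fell in KO cells (-2.14, adjusted p = 0.0179).

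The counts in these lists moved with single arrays as those of the members did. Without proliferating replicate 4, 3 of the 22 early targets fell in WT and 5 in KO cells, and 3 of the 25 cascade genes fell in each genotype, while 9.01% of all genes fell in WT and 11.2% in KO cells. Without proliferating replicate 1, none of either list passed in either genotype, and 3.79% (WT) and 2.36% (KO) of all genes did. Of the 13 dividing-cell genes, 12 fell on withdrawal in WT and 9 in KO cells with all arrays, 13 in each without replicate 4, and 8 and 4 without replicate 1.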

How the data were processed

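The deposited scanner files give an intensity per spot and dye, as mean signal with its local background median; per the file headers they were made by Agilent Feature Extraction 9.5.1.1 for array design 014868. The same files hold processed intensity values that, per the file headers, that program corrected for background and dye. The authors' deposited value table equals the scanner's log10 ratios with KO put over WT, and its columns have a median of 0.

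Here the mean signals went through limma 3.58.1 (normexp, offset 50; loess within arrays) in R 4.3.3. Control spots and 859 outlier-marked spots were left out, and saturated spots were kept. A gene was read from its brightest probe and tested if 2 or more arrays had a channel well above background. KO over WT came from a fit of the log2 ratios with a dye term (3 residual and 2.57 prior degrees of freedom). Withdrawal came from the separate-channel fit after Aquantile (intraspot correlation 0.764), with statmod 1.5.0 and the R package data.table (version 1.17.8). Adjusted p-values are 2-sided Benjamini-Hochberg values over all genes, and a gene was called under 0.05. Fits were tested on simulated data. Promoter windows came from RefSeq.

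The members and the other gene lists were chosen with earlier results of these data known. From each list the genes that passed were named, at most 4 of smallest p per comparison; the 5 genes most like the member mean were named by Pearson r. In each channel 52.3% to 59.1% of the spots stood well above background, and the number of arrays limits the precision. Alternatives were other background correction, normalization, filter, probe and dye choices, a replicate block, and leaving out arrays.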

Additional observations from a re-analysis of the deposited data

Results flagged for a closer look

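Both results below concern the WT channel of proliferating replicate 4, which lay farther from the other 3 arrays of its group than Dixon's 95% critical value for 4 samples allows. The log2 level of Spry1 was 8.48 there, against 11.66 to 12.27 on replicates 1 to 3, a gap of 0.839 of the group's range. The log2 level of Dusp4 was 7.61, against 9.82 to 9.90, a gap of 0.966 of the range. 27 groups of 4 values were checked (9 genes; WT levels, KO levels and ratios) and these 2 were found; chance alone gives about 1 in 20.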

How the results depend on the processing

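Slide and scan were not run as a block, because each slide holds 1 condition. The replicate numbers pair samples by name only: deviations of same-numbered arrays correlated at -0.369 (number 1) and -0.288 (number 2). With a replicate block, genes called numbered 358 (KO versus WT, proliferating; 172 as reported), 0 (difference of KO effects; 9), 1468 (withdrawal in WT; 2693) and 1768 (withdrawal in KO cells; 2750), members called numbered 1 (KO versus WT, differentiating: Etv1, -1.22, adjusted p = 0.0339), 4 and 6 (withdrawal in WT and KO cells), and the block turned the sign of Spry4 in differentiating cells (-0.0058) and of the differences of Spred1 (0.086) and Etv5 (0.17). With Agilent's processed signals and the authors' value table, 278 and 270 genes were called in proliferating cells and 72 and 81 for the difference, where Etv5 read 0.30 with each. Without a filter on dim probes these counts were 101 and 0, and 1 member was called for withdrawal in WT cells, as with quantile normalization. Without a dye term 24 genes and with the mean over probes 4 genes were called for the difference, and that mean gave Spred1 -0.31 and -0.49 on withdrawal. Fitted alone, the proliferating arrays called 0 genes and the differentiating arrays 1586 genes and 1 member. Without proliferating replicates 3 and 4 together, 970 genes were called in differentiating cells (557 as reported), 0 for the difference, and 985 and 1198 for withdrawal in WT and KO cells, with 1 member in each but the difference; signs turned for Spry2 (0.044), Dusp4 (-0.05) and Etv5 (-0.13) in proliferating cells, the differences of Spred1 (0.086) and Etv5 (0.17), and Etv1 on withdrawal in WT cells (-0.11). Leaving out single arrays gave 0 to 171 genes in proliferating and 0 to 534 in differentiating cells, 0 for the difference, and 200 to 3824 and 230 to 4724 for withdrawal in WT and KO cells, with 0 to 1, 0 to 1, 0, 0 to 6 and 0 to 6 members. Its range crossed 0 in proliferating cells for Spry2 (-0.12 to 0.037), Dusp4 (-0.075 to 0.50), Etv1 (-0.48 to 0.10) and Etv5 (-0.063 to 0.26); in differentiating cells for Spry1 (-0.39 to 0.97), Dusp6 (-0.21 to 0.62) and Etv5 (-0.10 to 0.17); for the differences of Spry1 (-0.91 to 0.45), Spred1 (-0.20 to 0.037), Etv4 (-0.30 to 0.099) and Etv5 (-0.22 to 0.10); and on withdrawal for Spred1 (-0.020 to 0.48 in WT, -0.22 to 0.51 in KO) and Dusp4 (-1.97 to 1.12 in WT). The cause of these changes was not tested. The estimates of Dusp6, Etv5, Spry1, Spry2, Spry4 and Etv4 on withdrawal were negative under every alternative run, in both genotypes. For Spry4, which no array measured after withdrawal, the fold is an approximate bound.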
